A study of Anguilla anguilla with 45 samples.

Results

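Caudal fins of wild European eels, Anguilla anguilla, from the Gironde were compared with those of wild eels from Certes, over the contigs that had at least 3 values at each site. A contig is an assembled transcript sequence, which the files name by number only. Of the 992 contigs on the array, 713 met this condition, and 279 did not. The comparison used 10 of the 45 arrays of the study, 5 per site and 1 eel per array: A302, A305, A306, A310 and A315 from the Gironde, and A201, A203, A205, A207 and A210 from Certes. The labels name each wild eel by its site and tissue and give no exposure, age, sex or size. Every fin RNA was labelled with Cy3 and hybridised with the same Cy5 reference, made from 30 wild Certes eels and labelled as liver RNA. The other groups used below were 5 fins of wild Garonne eels, and 5 fins and 5 livers of unexposed laboratory eels, called controls. The control fins and livers carry the same eel numbers, so they are likely tissues of the same 5 eels. Fins of 3 exposed groups of laboratory eels, 5 eels each, also entered the fit: dietary PCBs at 50 or 300 ng per g, and waterborne cadmium at 4 µg per L.

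A piece of tail fin can be cut without killing the eel, so its transcripts can be read in a fish that is returned to the water. Fin carries skin, connective tissue and bony rays. The study concerned cadmium and polychlorinated biphenyls (PCBs). Cadmium binds to cysteine-rich metallothioneins, whose genes are induced by metals, and dioxin-like PCBs bind the aryl hydrocarbon receptor, which switches on cytochrome P450 1A. The Gironde estuary is known for cadmium brought down from upstream mining and smelting. None of these genes could be looked up here, since 0 contig numbers matched the gene table used, which also left the tissue labels unchecked against marker genes. No role can therefore be given for any contig.

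Values are the authors' log2 ratios, taken as fin over reference, a direction that is likely from the dyes in the labels but not stated with the values. A value of 1 then means a ratio to the reference 2 times the middle ratio of the array. If the ratios ran the other way, every higher and lower below would change places, with 42 contigs higher and 73 lower in Gironde fins. Each array was centred by the authors on a median of 0, so a difference between sites is relative to the middle of each array. Above or below the reference therefore means above or below this middle, not more or less RNA than in the reference. Over the 713 contigs the Certes eels correlated with one another at 0.524 to 0.825, with a median of 0.702 over 10 pairs. The Gironde eels correlated with one another at -0.048 to 0.45, with a median of 0.211. Across sites the 25 pairs ran from -0.305, for A306 with A207, to 0.15, with a median of -0.106. Eel A315 stood apart from its own site, at a median of -0.00503 with the other Gironde eels and 0.109 with the Certes eels. These correlations are across contigs, which are not independent replicates, and share the same reference.

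The fins of the 2 sites differed in 115 contigs, or 16.1% of those tested, at a limma adjusted p under 0.05. In Gironde fins 73 contigs (10.2%) were higher and 42 (5.89%) were lower. The higher contigs differed by a median of 2.68 on the log2 scale, a 6.39-fold difference, and ran from 1.42 to 6.41. The lower contigs differed by a median of -3.04, 8.24-fold, and ran from -5.87 to -1.73. Across all 713 contigs the median difference was -0.29, with 297 contigs above 0 and 416 below. The balance of higher and lower calls moved with the centring: recentring each array on the 65 contigs measured in every fin gave 39 higher and 137 lower contigs. It also moved with the fit. The 10 arrays of both sites alone gave 64 higher and 61 lower, and array weights gave 103 and 98. Without Certes eels A207 and A210, which had the fewest values, 62 of 706 contigs tested differed. Without Gironde eels A306 and A315, 53 of 553 did. In whole fin pieces, fewer cells of a type and less RNA per cell cannot be told apart.

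Most of the contigs that differed lay on opposite sides of the reference at the 2 sites. Of the 73 higher contigs, 65 had a mean above 0 in Gironde fins and below 0 in Certes fins. Their median level was 1.69 in Gironde fins and -0.91 in Certes fins. Of the 42 lower contigs, 37 had a mean below 0 in Gironde fins and above 0 in Certes fins, with medians of -1.0 and 2.11. Of all 713 contigs, 297 had a difference above 0, and 174 of these lay on opposite sides in the first direction. The difference was below 0 in 416, and 243 of these lay on opposite sides in the second direction. Contigs called for a large difference on these arrays tend by that choice to lie on opposite sides, so the counts are no test. The Gironde mean was the nearer one to the reference in 26 of the 73 higher contigs, in 31 of the 42 lower contigs and in 413 of all 713.

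**Figure D1:**
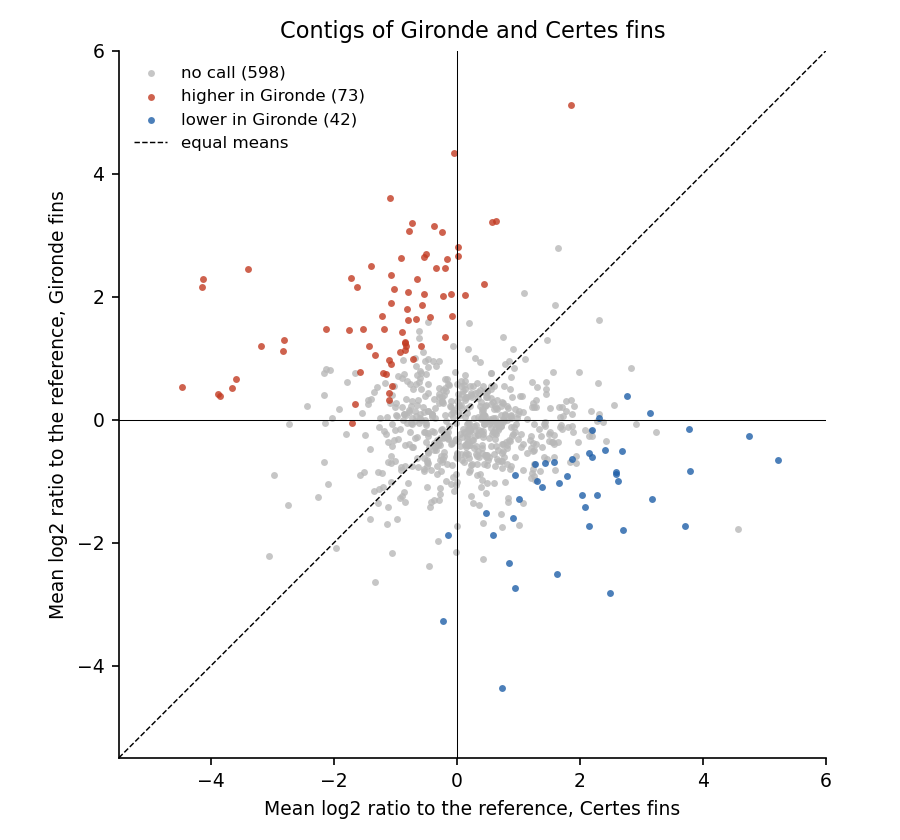
Mean log2 ratio to the reference of each of the 713 contigs in Certes fins (horizontal) and Gironde fins (vertical), 3 to 5 arrays per site; the dashed line marks equal means. The 73 higher contigs lie above the line, 65 of them below 0 in Certes fins and above 0 in Gironde fins, and 37 of the 42 lower contigs lie above 0 in Certes fins and below 0 in Gironde fins.

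Among the contigs with a value on all 10 arrays, contig_33258 had the largest difference of those higher in Gironde fins. Its log2 ratio was 1.27, 0.84, 1.84, 0.30 and 2.27 in Gironde eels A302, A305, A306, A310 and A315. In Certes eels A201, A203, A205, A207 and A210 it was -3.16, -3.22, -2.70, -2.98 and -2.03. All Gironde eels lay above the centred reference and all Certes eels below it, with no overlap. The means were 1.30 ± 0.78 and -2.82 ± 0.49 (SD, n = 5 each), which differed by 4.12 ± 0.59 (SE, limma adjusted p = 2.23e-05; exact two-sided permutation p = 0.0079, the smallest that 5 against 5 allow). The contigs named here and below were picked for their differences on these same arrays, so their limma and permutation p-values are not separate evidence. The limma SE uses a spread shared by all fin groups. In a fit of only the 10 arrays of both sites the limma adjusted p of contig_33258 was 0.00035. Control fins lay at -3.02 ± 0.40 (n = 5) and Garonne fins at -1.60 ± 0.59 (n = 3), while control livers lay at -0.32 ± 0.81 (n = 4). The level in Certes fins was thus within the spread of the control fins, and every Gironde eel lay above every control fin and Garonne fin. The Gironde mean lay above every control liver, but A310, at 0.30, lay below control livers at 0.44 and 0.32. Fins of the lower PCB dose lay at 0.49 ± 1.31 (SD, n = 4), and overlapped the Gironde eels. Fins of the higher PCB dose lay at -3.04 ± 1.5 (n = 4) and cadmium fins at -2.76 ± 0.25 (n = 3), all below every Gironde eel.

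The next contig, contig_35100, stood at 5.66, 1.92, 5.24, 0.96 and 2.25 in the Gironde eels in the same order. In the Certes eels it stood at -0.14, -0.66, -0.62, -1.10 and -1.15. The sites did not overlap here either, but A302 and A306 lay far above the other Gironde eels. The mean was 3.21 ± 2.11 in Gironde fins and -0.73 ± 0.41 in Certes fins (SD, n = 5 each), so that the sites differed by 3.94 ± 0.67 (SE, limma adjusted p = 0.000106; exact two-sided permutation p = 0.0079). In a fit of only the 10 arrays of both sites the limma adjusted p of contig_35100 was 0.0116. Garonne fins lay at -0.33 ± 0.28, control fins at 0.14 ± 0.36 and control livers at 0.37 ± 0.18 (n = 5 each). The highest of them was a control fin at 0.71, below the lowest Gironde eel, while single fins reached 1.72 at the higher PCB dose, 1.13 at the lower PCB dose and 0.98 under cadmium, within the Gironde range. With the sign of array A306 turned the call of contig_35100 ended, at a difference of 1.84.

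Among the lower contigs with all 10 values, contig_12607 and contig_38405 had the largest differences, and both lost their call without Certes eels A207 and A210. In contig_12607 the ratio was -0.25, -0.33, -0.52, -0.19 and -1.89 in the Gironde eels. It was 0.84, 0.21, 0.75, 3.13 and 4.39 in the Certes eels. The sites did not overlap, and A207 and A210 lay more than 2 log2 units above the other Certes eels. The difference was -2.50 ± 0.65 (SE, limma adjusted p = 0.00838; exact two-sided permutation p = 0.0079), between -0.64 ± 0.71 and 1.86 ± 1.80 (SD, n = 5 each). Control fins lay between, at 0.75 ± 0.70 (n = 5). Fins of the lower PCB dose lay at -0.24 ± 0.805 (SD, n = 4) and cadmium fins at 0.225 ± 0.597 (n = 5). Both groups overlapped the Gironde eels. Fins of the higher PCB dose lay at 0.684 ± 0.131 (n = 2), above every Gironde eel. In a fit of only the 10 arrays of both sites the limma adjusted p of contig_12607 was 0.047. The call of contig_12607 ended in 3 settings. Without A207 and A210 the difference was -1.24 (limma adjusted p = 0.221), without A306 and A315 it was -2.12 (limma adjusted p = 0.0714), and with array weights, which give the noisier arrays less influence, it was -1.61 (limma adjusted p = 0.0721).

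For contig_38405 the Gironde eels stood at 0.08, 0.10, -0.08, -0.10 and 1.91, and the Certes eels at 0.71, 1.68, 1.30, 6.48 and 3.63. Here the sites overlapped, since A315 lay above 3 Certes eels. The difference was -2.38 ± 0.80 (SE, limma adjusted p = 0.0416; exact two-sided permutation p = 0.04), between 0.38 ± 0.86 and 2.76 ± 2.35 (SD, n = 5 each). Its call ended in 12 of 24 alternative settings, among them the omission of A207, A210, A302, A305, A306 or A310 alone, at differences from -2.31 to -1.45. Without A207 and A210 the difference was -0.85 (limma adjusted p = 0.553). The call of contig_38405 also ended in a fit of only the 10 arrays of both sites (limma adjusted p = 0.113). Control livers lay at 0.80 ± 0.09 and control fins at 1.28 ± 0.73 (SD, n = 5 each). Cadmium fins lay at 0.06 ± 1.13 (n = 5) and fins of the lower PCB dose at 0.18 ± 0.44 (n = 2). Fins of the higher PCB dose lay at 1.42 ± 0.77 (n = 4). Each of these exposed groups overlapped the Gironde eels.

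**Figure D2:**
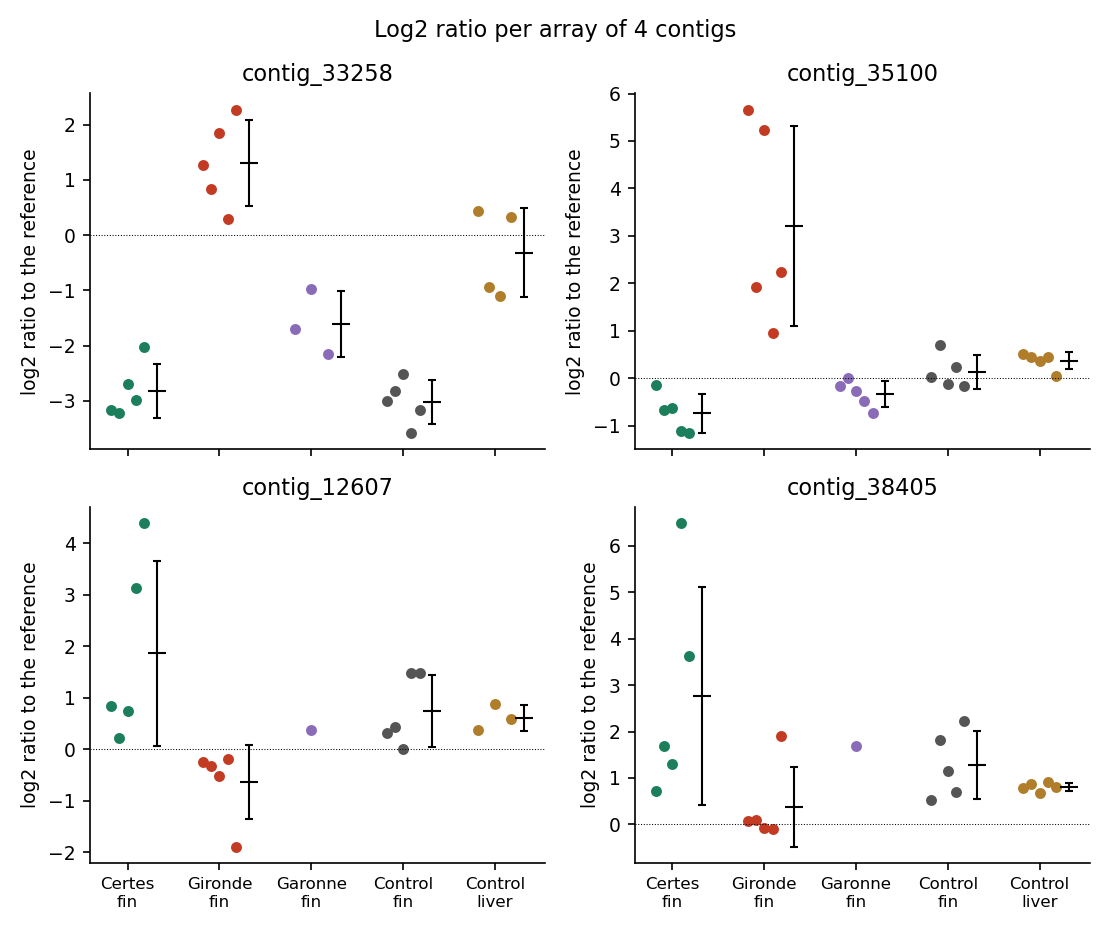
Log2 ratio to the reference per array of 4 contigs in Certes, Gironde and Garonne fins and in control fins and livers, with the mean and SD beside the points (Garonne had 1 value for each of the lower 2 contigs). In contig_33258 and contig_35100 all Gironde eels lie above all other fins shown; in contig_12607 and contig_38405 the highest values are Certes eels A207 and A210.

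The Gironde eels did not carry the higher contigs to the same extent. Over the 73 higher contigs the median log2 ratio was 3.08 in A306, 2.01 in A302, 1.45 in A310, 1.03 in A315 and 0.39 in A305. The Certes eels had medians between -1.17 and -0.51. In A306, 98.5% of the higher contigs with a value lay above every Certes value, in A310 97.1%, in A302 94.2%, in A315 91.3% and in A305 74.3%. Over all 713 contigs these shares were 31.8% in A306, 26.3% in A310, 24.5% in A302, 45.6% in A315 and 21.8% in A305, so that A315 was the eel most often above every Certes value in general. Eel A305 had 7 of its 70 measured contigs below every Certes value, although the group mean was higher. Since these arrays made the calls, the shares describe how the eels contribute and are no test. Without A306, 53 contigs were higher and 40 lower. The higher contigs also numbered 53 without A310, 61 without A302, 69 without A315 and 71 without A305. Without A306 and A315 together 25 were higher and 28 lower, but only 553 contigs, with 80 of the 115 calls, could then be tested.

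Over the 42 lower contigs the Gironde medians were closer together, from -1.03 in A315 to -0.56 in A305. The Certes medians ran from 1.23 in A201 to 2.07 in A210. In A302 all 40 contigs with a value lay below every Certes value. The share was 97.4% in A305, 94.7% in A310, 90.0% in A306 and 78.3% in A315. Over all 713 contigs the same share was 42.3% in A302, 43.8% in A305, 39.4% in A310, 40.6% in A306 and 29.4% in A315. A306 and A315 had a value for only 20 and 23 of these contigs, against 38 to 40 in the other Gironde eels. Leaving out A302, A305 or A310 reduced the lower contigs to 21, 24 and 21, in part because fewer contigs then had 3 Gironde values. Without A310 the total was 74. Leaving out Certes eel A205 gave 26 lower contigs, and without A207 and A210 43 contigs were higher and 19 lower.

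**Figure D3:**
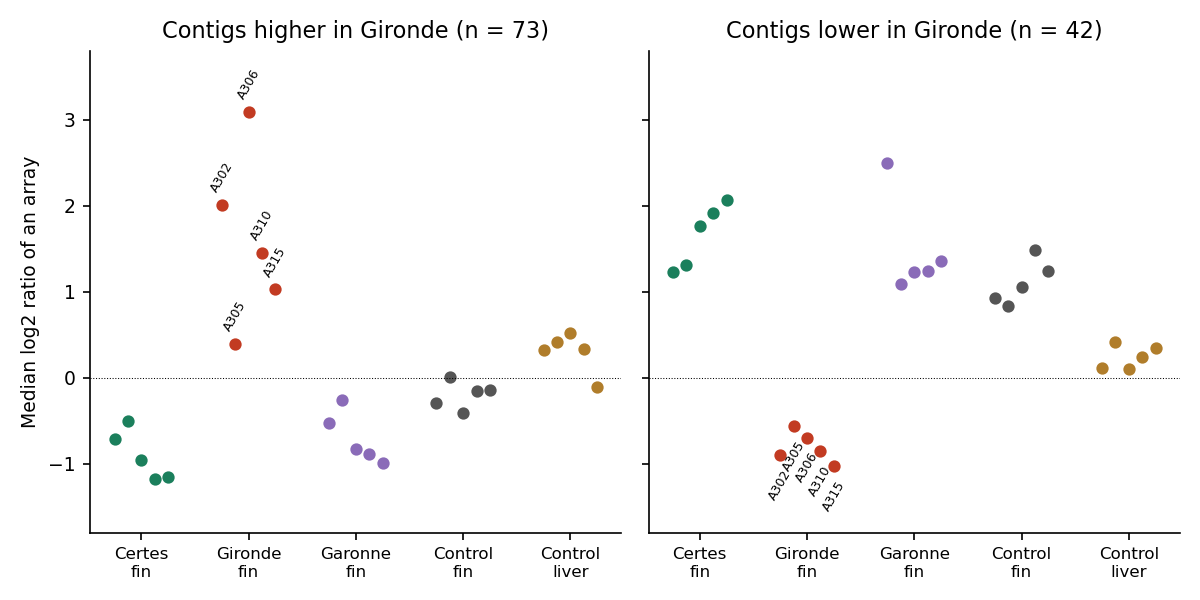
Median log2 ratio of each array over the 73 contigs higher (left) and the 42 contigs lower (right) in Gironde fins; each point is 1 array. The Gironde eels range from 0.39 (A305) to 3.08 (A306) on the left and from -1.03 to -0.56 on the right, and the Garonne and control fins lie on the Certes side of the Gironde eels in both panels.

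The ranges of the sites were also compared without a model. In 180 contigs, 25.2% of the 713, the values of the 2 sites did not overlap, with the Gironde eels above in 69 and below in 111. Of the 73 higher contigs 49 did not overlap, and of the 42 lower contigs 33. Of the 598 contigs without a call, 20 did not overlap with the Gironde eels above and 78 with them below. Ranges of 3 values overlap less readily than ranges of 5, so the count mixes contigs of unlike completeness.

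The balance of directions differed with how completely a contig was measured. Among the 169 contigs with all 10 values, 37 (21.9%) were higher and 3 (1.78%) lower in Gironde fins, and the median difference was 0.33. Among the 486 with 8 or 9 values, 36 were higher and 31 lower, with a median of -0.33. Among the 58 with 6 or 7 values, 0 were higher and 8 lower, with a median of -1.12. Certes eels A207 and A210 had values for 531 and 489 of the 713 contigs, against 709 to 712 in the other Certes eels. Of the lower contigs 40.5% lacked a value on A207 or A210, against 6.85% of the higher contigs and 35.6% of all 713. In contigs complete on all arrays, the median within-site SD was 1.37 in Gironde fins and 0.47 in Certes fins, while in those with 6 or 7 values it was 0.58 and 0.72. The part of spot brightness in these differences was not tested.

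Of the 279 contigs left out, 113 had too few values only at Gironde and 164 only at Certes, and 2 at both. No value at all was present for 10 contigs in Gironde fins and for 37 in Certes fins. In 90 contigs all 5 Gironde eels had a value and at most 1 Certes eel did, while the reverse held for 39. Just outside the rule, the 137 contigs with 2 values at the scarcer site had a median difference of -0.20 and a median absolute difference of 1.495. Just inside it, the 288 contigs with 3 values had -0.37 and 1.01. The number of contigs with a value was 840, 879, 717, 829 and 761 on the Gironde arrays and 935, 866, 861, 640 and 598 on the Certes arrays. The means were 805 ± 65.1 and 780.0 ± 151 (SD, n = 5 each), at p = 0.75 in an exact permutation test (two-sided).

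The spread between eels was described per contig and was not tested, while the spread across contigs within an array was tested. The within-site SD of a contig was larger in Gironde fins in 467 of 713 contigs, 65.5%, with a median of 1.0 against 0.54. Among the higher contigs it was larger in 61 of 73, and among the lower contigs in 22 of 42. The spread across contigs within an array was measured over the 169 complete contigs. This SD was 1.78, 1.19, 2.23, 1.17 and 1.76 on the Gironde arrays and 0.85, 0.78, 0.80, 1.28 and 1.47 on the Certes arrays, in the order of eels given above. The 3 lowest values were Certes eels, and A207 and A210 lay within the Gironde range. The means were 1.63 ± 0.45 and 1.04 ± 0.32 (SD, n = 5 each). They differed by 0.59, at p = 0.048 in a two-sided exact permutation test and at an adjusted p of 0.14 over 3 array readouts, which misses the threshold. Over all 713 contigs the difference in this SD was 0.15 (exact permutation p = 0.39). The interquartile range over the complete contigs was 1.93 ± 0.73 and 1.27 ± 0.40 (exact permutation p = 0.1, adjusted p = 0.15).

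Levels in fins and livers that neither site contributed were set beside the calls. In the higher contigs control fins had a median level of -0.24 and Garonne fins of -0.72, on the Certes side of the Gironde median of 1.69. The control mean lay nearer to the Certes mean than to the Gironde mean in 66 of 71 higher contigs with at least 3 control values, 93.0%, against 70.8% of all members measured. In the lower contigs control fins had a median of 1.19, and 33 of 39 lay nearer to Certes, 84.6%. Fins of the lower PCB dose lay nearer to Certes in 68.1% of higher and 41.2% of lower contigs, against 45.1% of all members. For the higher PCB dose these shares were 87.5% and 75.0%, against 68.9%. For cadmium fins they were 80.6% and 73.8%, against 57.5%. Control livers had medians of 0.30 in the higher and 0.27 in the lower contigs, and lay nearer to Certes in 36 of 68 (52.9%) and 16 of 36 (44.4%). Over all members the livers lay nearer to Certes in 275 of 637, 43.2%, so that the share in the lower contigs was about that of all members. The calls were made on the Gironde and Certes arrays, and no test was applied to these shares.

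The Gironde and Garonne differences from Certes share the Certes arrays and are given side by side. In the 357 contigs with 3 values at all 3 wild sites, Garonne and Certes fins differed in 8 (2.24%). Gironde and Garonne fins differed in 131 (36.7%), 74 higher and 57 lower in Gironde. Of the calls between Gironde and Certes fins, adjusted over the 713 contigs, 69 higher and 14 lower fell among the same 357. The 36.7% is therefore not to be set against the 16.1% of all 713 contigs. Over all 357 contigs the median difference from Certes was 0.22 in Gironde fins and 0.45 in Garonne fins, where it was above 0 in 282. In the 69 higher contigs among them this median was 2.66 in Gironde fins and 0.22 in Garonne fins. The direct test of Gironde against Garonne passed in 61 of these 69. Only 14 of the 42 lower contigs had 3 Garonne values, with medians of -2.74 and 0.39, and the direct test passed in all 14. The same Gironde arrays chose these contigs, so neither the counts of 61 and 14 nor the p-values that follow stand as separate evidence. For contig_33258 the difference between Gironde and Garonne fins was 2.90 ± 0.68 (SE, limma adjusted p = 0.00169), and for contig_35100 it was 3.53 ± 0.67 (limma adjusted p = 0.000181).

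The number of calls and the balance of directions moved with the centring and scaling of the arrays and with the fit, as the plot of calls by setting shows. The recentring on 65 contigs shifted the median difference from -0.29 to -1.37. Recentring on the 169 contigs with all 10 values gave a median of -0.71, with 57 higher and 75 lower. A common spread for every array gave 88 higher and 95 lower, and quantile normalization 88 higher and 72 lower. No contig of the 115 changed sign under these 4 settings, and 81, 99, 113 and 113 of them still passed. The 115 were called for large differences on these same arrays, at least 1.42 in the higher contigs and at most -1.73 in the lower. The recentring on 65 contigs moved contig_33258 from 4.12 to 2.87. A change of sign was thus unlikely from the choice of contigs, and its absence is no separate evidence. Array A306 correlated with A207 below -0.3, but with the other Gironde eels at 0.0325 to 0.45. With the Certes eels A302 ran from -0.158 to -0.0952 and A310 from -0.147 to -0.106, so A306 was not alone below 0. Whether A306 was inverted was not tested. Since the labels state the dyes, the direction of A306 was kept. With its sign turned 19 contigs were higher and 29 lower, with 43 of the 115 still passing.

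**Figure D4:**
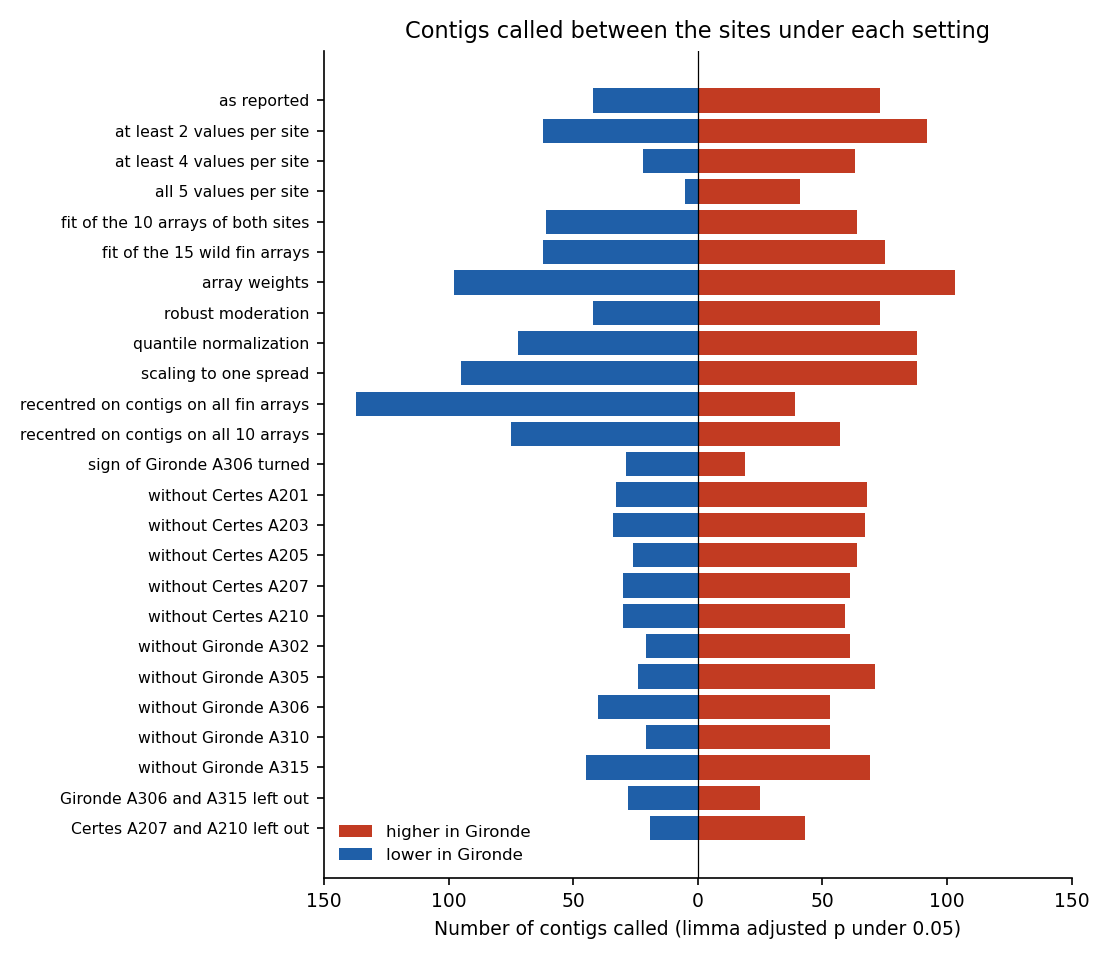
Number of contigs higher (right of 0) and lower (left of 0) in Gironde fins at a limma adjusted p under 0.05, under each setting; A followed by a number is the eel left out. The reported counts are 73 higher and 42 lower; among the other settings array weights gave 103 and 98, recentring on 65 contigs 39 and 137, and the sign of A306 turned 19 and 29.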

How the data were processed

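Per the labels, each tissue's RNA carried Cy3 and a reference shared by all arrays carried Cy5. The values are the authors' deposited log2 ratios of 992 contigs, with a median of 0 on every array. How the authors corrected background, filtered spots and merged the 3 spots of a contig is not given in the sources used here. Another deposited table, of scanner readings in 180 columns, was left out because no label names its columns. Missing values stayed missing.

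Group means of the 35 fin arrays in 7 groups were estimated with limma 3.58.1 under R 4.3.3 (lmFit, moderated as in eBayes), so that all fin groups share one spread. The limma tests were two-sided, adjusted by Benjamini and Hochberg, at a threshold of 0.05. Gironde against Certes was adjusted over the 713 contigs with at least 3 values per site. Each comparison with Garonne fins was adjusted over the 357 contigs with at least 3 values at all 3 wild sites. Array readouts and single contigs had exact permutation tests (scipy 1.17.1). The number of arrays limits the precision. The named contigs are the 2 higher and 2 lower with the largest differences among those past the threshold with all 10 values. Contigs, lists and rules were chosen with earlier results of these data known.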

Additional observations from a re-analysis of the deposited data

Results flagged for a closer look

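Among the per-eel values of the named contigs, the array readouts and the medians over the higher and lower contigs, 18 groups of 5 were searched for a sample far from the others, and 2 were found; chance alone gives about 1 in 20. Both were Gironde eel A315. In contig_12607 it lay lowest, at -1.89, with the other Gironde eels between -0.52 and -0.19. In contig_38405 it lay highest, at 1.91, with the others between -0.11 and 0.10. Without A315 the differences were -2.19 and -2.76, and both calls held.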

How the results depend on the processing

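In the settings tried, no contig of the 115 changed sign except 3 with the sign of A306 turned, and contig_33258 passed in all of them. Signs could not change in settings that altered only the values required, the groups fitted or the moderation, since these keep the means. In the other settings the 115, called for large differences on these same arrays, left little room for a change of sign. The fit shares one spread over 7 groups although the median within-site SD was 1.0 in Gironde and 0.54 in Certes fins. A fit of the 10 arrays of both sites gave 64 higher and 61 lower and kept 85 of the 115 calls, and a fit of the 15 wild fins gave 75 and 62 and kept 101. With at least 2 values per site 199 contigs differed between Gironde and Garonne fins. With at least 4 values 22 contigs were lower than in Certes fins, 85 had no overlap, the median difference was -0.17 and the Garonne comparison had 75. With all 5 values 46 contigs (27.2% of those tested) differed from Certes, 41 higher and 5 lower, 24 had no overlap, the median turned to 0.33 and the Garonne comparison had 40. Array weights called 28.2% of the contigs tested (103 higher, 98 lower), quantile normalization 72 lower, and a common spread 25.7% (95 lower, median -0.42). Recentring on the 65 contigs gave 24.7% (39 higher, 137 lower, median -1.37), and on the 169 contigs 75 lower, median -0.71. With A306 turned 6.73% differed, 19 higher, median -0.17, and 67 from Garonne. Without A306 and A315, chosen after seeing the data, 9.58% differed (25 higher, median -0.40, 78 from Garonne). Without A207 and A210, also chosen after seeing the data, 8.78% differed (43 higher, 19 lower, median -0.12).

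Leaving out 1 array at a time called 11.8% to 18.5% of the contigs tested, 74 to 114 in number, with 53 to 71 higher and 21 to 45 lower, 131 to 200 without overlap, a median of -0.38 to -0.16 and 100 to 129 between Gironde and Garonne. The difference in contigs with a value ran from -20.3 to 63.95 and turned below 0 without A207 (-9.8) or A210 (-20.3). That in the SD ran from 0.371 to 0.742, and was 0.152 over all 713 contigs. After quantile normalization it was 0.767 (exact permutation p = 0.0079). The exact permutation p for the SD rose to 0.095 without any 1 Certes eel, to 0.079 without A306 and to 0.22 without A315. It stayed at 0.048 without A305 or A310 and fell to 0.032 without A302. No exact permutation p in this paragraph was adjusted over the 3 array readouts. The difference in the interquartile range ran from 0.253 to 0.909, and was -0.144 over all 713 contigs. After quantile normalization it was 0.891 (exact permutation p = 0.016). The causes were not tested. No paired analysis was possible because the eels of the compared sites share no numbers. Signal over background was not analysed here, so its limit on dim contigs is unknown.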
